A study of Mus musculus with 6 samples.

Results

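Marker genes of liver endothelial cells, the cells that line the blood vessels of the liver, were compared between exercised and sedentary mice. The 34 genes were chosen by symbol for their known endothelial expression, but with earlier results of these data known. Their counts beside those of all genes are therefore a description and no independent test. All 34 were among the 16123 genes of the deposited table. The exercise group held 3 libraries from mice that ran 22 km each on a treadmill over 6 weeks, with the liver taken 24 h after the last training, and the sedentary group held 3 libraries from mice without treadmill training. The design text describes healthy adult mice, 3 per group, and the labels used here name no strain, sex or allele. Livers of both groups came from animals flushed with buffered saline through the heart, and a small piece of whole tissue was used for RNA. The labels give the 24 h delay for the exercise group only, so training and the time since handling cannot be told apart.

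Sinusoidal endothelial cells form the wall of the finest liver vessels, which is perforated and lacks a continuous basement membrane, and they clear proteins and immune complexes from blood through scavenger receptors. They also send signals to hepatocytes. Wnt2, Wnt9b and Rspo3 act on the Wnt pathway of hepatocytes near the central vein, and BMP2 acts on hepatocyte receptors that control hepcidin. Their own survival and shape depend on receptors for vascular endothelial growth factors and angiopoietins.

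In exercise livers 16 of the 32 tested markers were higher and none was lower, by edgeR's quasi-likelihood test with Benjamini-Hochberg adjustment over all 10266 tested genes at a threshold of 0.05. Over all tested genes 19.1% were called higher and 19% lower, or 38.1% in either direction. Every one of the 32 estimates lay above 0, where 49.8% of all tested genes had such an estimate. The median log2 fold change of the tested markers was 0.20, and that of all tested genes was −0.00062. The rises were small, between 1.08-fold and 1.32-fold among the 16. Ptprb, Kdr, Stab1, Stab2, Dnase1l3, Ehd3 and Aqp1 stayed past the threshold when any 1 of the 6 libraries was left out. In tissue RNA, more endothelial cells and more RNA per endothelial cell cannot be told apart.

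Libraries of a group were close to each other, with a common biological coefficient of variation of 1.84%, and the p-values measure only the spread between these libraries, which may be technical in part. Tested against a change of 1.2-fold, edgeR called none of the 32 markers higher, beside 2.33% of all genes (1 marker had an unadjusted p under 0.05, and DESeq2 against no change called 8). A fit of 1 summed library per group with an assumed variation of 10% called 0.487% of all genes higher. It had no room to call changes of the markers' size, so its count of 0 markers says nothing about them (none had an unadjusted p under 0.05 by edgeR). Library totals were 17941303 to 18371949 counts. Levels are given in FPKM, the deposited fragment counts scaled to transcript length and library depth, and fold changes come from counts scaled between libraries by TMM. Sedentary libraries had TMM factors of 0.972 to 0.977 and exercise libraries of 1.025 to 1.031, so the fitted changes lie mostly lower than the ratios of the FPKM values beside them. The split of all calls was 1961 higher to 1952 lower, against 3537 to 1203 with library totals alone and 2868 to 1099 with limma on log2(FPKM + 1), and no marker was called lower in any of these fits.

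The promoters of a few markers are shown because the estimates of the markers shared a direction. RefSeq windows of GRCm38.p6, from 250 bases before to 50 bases after a start, were matched for 19 of the 34 genes. By the size of the rise among called genes whose groups did not overlap, Rspo3, Cldn5 and Ptprb came first. Those of them with a window and the next in order are printed, namely Cldn5 (chr16:18776597-18776896, plus strand), Kdr (chr5:75978406-75978705, minus strand) and Stab1 (chr14:31168592-31168891, minus strand), with Tek (chr4:94739039-94739338, plus strand), the tested marker closest to no change. The Kdr window lay wholly inside the annotated gene, which reaches to 75979072. The Tek window lay mostly inside its gene, which begins at 94739086. For these 2 genes the start used was thus not the outermost annotated one. Capitals mark matches on either strand to the ETS motifs CCGGAAG and ACAGGAA, the SOX motif ACAATG, the GATA motif AGATAA, the KLF motif GGGNGGG and the BMP-SMAD motif GGCGCC.
Cldn5: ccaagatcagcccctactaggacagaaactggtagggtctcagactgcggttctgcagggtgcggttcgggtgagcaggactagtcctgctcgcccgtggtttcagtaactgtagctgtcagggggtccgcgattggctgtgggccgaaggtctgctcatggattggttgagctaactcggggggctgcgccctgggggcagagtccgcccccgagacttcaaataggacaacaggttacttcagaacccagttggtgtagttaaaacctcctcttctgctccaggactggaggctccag
Kdr: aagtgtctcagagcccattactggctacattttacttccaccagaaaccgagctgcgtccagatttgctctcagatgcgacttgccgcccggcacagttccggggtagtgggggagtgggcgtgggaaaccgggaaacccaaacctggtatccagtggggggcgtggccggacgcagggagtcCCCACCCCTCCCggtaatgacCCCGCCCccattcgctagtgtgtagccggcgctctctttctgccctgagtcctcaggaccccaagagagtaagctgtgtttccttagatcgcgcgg
Stab1: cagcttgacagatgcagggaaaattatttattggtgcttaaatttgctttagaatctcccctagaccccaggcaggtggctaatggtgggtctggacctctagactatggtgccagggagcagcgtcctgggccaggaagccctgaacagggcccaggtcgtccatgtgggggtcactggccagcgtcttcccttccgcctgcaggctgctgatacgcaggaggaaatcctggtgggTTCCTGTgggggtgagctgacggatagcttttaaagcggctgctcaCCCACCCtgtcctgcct
Tek: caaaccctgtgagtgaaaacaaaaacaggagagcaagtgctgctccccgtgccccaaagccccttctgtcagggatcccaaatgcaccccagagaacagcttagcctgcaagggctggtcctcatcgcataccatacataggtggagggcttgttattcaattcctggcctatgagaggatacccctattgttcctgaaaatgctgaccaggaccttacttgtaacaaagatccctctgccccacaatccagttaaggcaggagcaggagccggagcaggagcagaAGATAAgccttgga
The Cldn5 window held none of these letters. The Kdr window held 3 matches to the KLF motif, some of which overlap, and the Stab1 window held 1 KLF and 1 ACAGGAA match. The Tek window held 1 GATA match. Among the 19 markers with a window, ACAGGAA occurred in 5, where 8.67% of all 32851 windows held it, and GGGNGGG occurred in 13, where 48.1% did. CCGGAAG occurred in none of the 19 (8.86% of all windows), ACAATG in 1 (12.6%), AGATAA in 1 (11.2%) and GGCGCC in 3 (11.9%). Among the 10 called markers with a window, ACAGGAA occurred in 3 and GGGNGGG in 6. These matches describe letters in a window and no binding.

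The defining markers were 4 genes, and all were read in every library. Stab2 (chr10:86841194-87008038, minus strand), a scavenger receptor for hyaluronan, was at 10.83, 10.25 and 10.82 FPKM in the sedentary and 12.59, 12.33 and 12.33 FPKM in the exercise libraries. Clec4g, a lectin of sinusoidal cells, was at 39.42, 39.28 and 39.69 against 45.57, 39.83 and 43.50 FPKM. The groups did not overlap for either gene in FPKM, but for Clec4g they did in TMM-scaled counts. Pecam1, an adhesion protein of all endothelium, was at 5.34, 4.81 and 5.55 against 6.45, 5.66 and 5.96 FPKM. Cdh5, the cadherin of endothelial junctions, was at 6.23, 6.27 and 6.49 against 7.32, 6.63 and 7.07 FPKM. For Pecam1 and Cdh5 too the groups were apart in FPKM but overlapped in TMM-scaled counts. Of these 4 genes Stab2 passed the test (log2 fold change 0.21, SE 0.04, edgeR adjusted p = 1.41e-05). The log2 fold changes of Clec4g, Pecam1 and Cdh5 were 0.05, 0.12 and 0.07, with adjusted p = 0.43, 0.18 and 0.339 by edgeR. Summed over the 34 genes, the level was 281, 282 and 279 FPKM in the sedentary and 331, 327 and 331 FPKM in the exercise libraries. Levels ranged from 0.353 FPKM for Wnt9b to 41.2 FPKM for Clec4g as means of all 6 libraries, with 15 genes under 5 FPKM. Clec4g, Aqp1 and Fcgr2b formed the top, at 41.2, 35.4 and 30.8 FPKM.

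**Figure D1:**
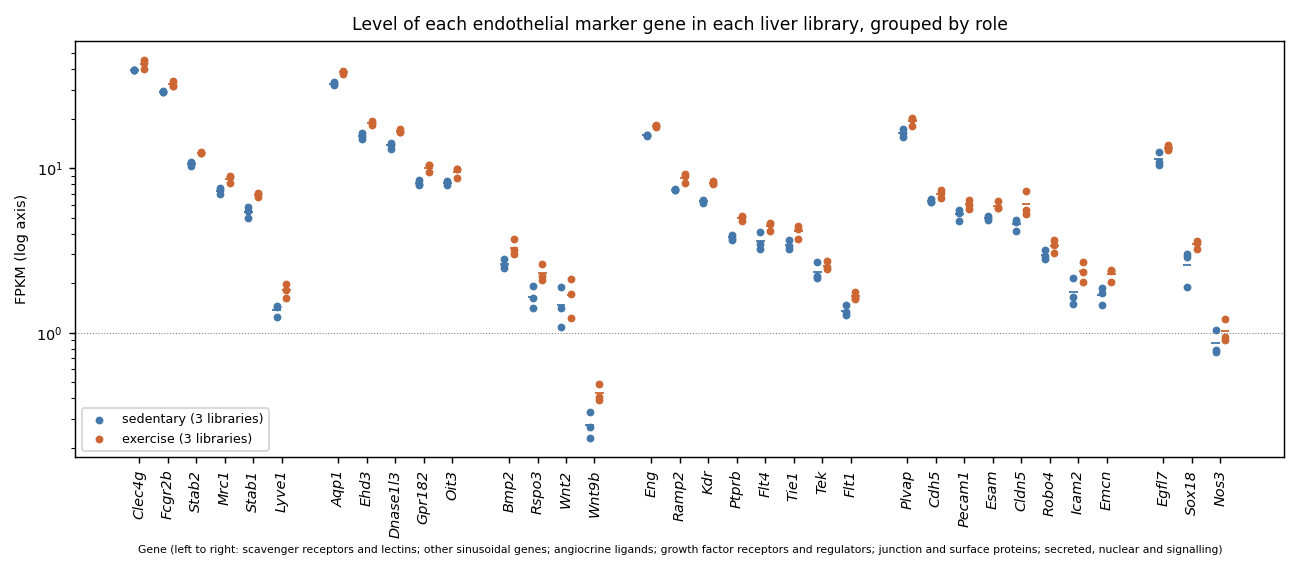
FPKM of each of the 34 endothelial marker genes (log axis) in the 3 sedentary and 3 exercise libraries, one point per library with a bar at the group mean, genes grouped by role and the dotted line at 1 FPKM. Exercise points sit a little above sedentary ones for most genes, and the groups overlap for Wnt2, Tek, Icam2, Robo4 and Nos3.

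Scavenger receptors and lectins, which remove waste from blood, had 3 of 6 members higher, beside 19.1% of all tested genes. Their median log2 fold change was 0.19. Stab1 (chr14:31139017-31168651, minus strand), a scavenger receptor that macrophages also carry, was at 5.78, 5.53 and 5.01 FPKM in the sedentary and 7.06, 6.94 and 6.72 FPKM in the exercise libraries. It rose by 20.4% (log2 fold change 0.27, SE 0.05, edgeR adjusted p = 4.72e-06), and Stab2 rose 1.16-fold. Mrc1, the mannose receptor, was at 7.55, 7.37 and 6.95 against 8.08, 8.98 and 8.78 FPKM. Its groups did not overlap, and it rose 1.12-fold (adjusted p = 0.00622 by edgeR), a call that ended without sedentary replicate 3 or exercise replicate 2 (adjusted p = 0.0559 and 0.056). Lyve1, a hyaluronan receptor shared with lymphatic vessels, had the largest estimate of this group at 0.32 but a wide error (SE 0.15, adjusted p = 0.0793). Fcgr2b, the inhibitory receptor for immune complexes, was among the most abundant markers and had an estimate of 0.08 (SE 0.05, adjusted p = 0.214). Exons of Stab1, Stab2, Clec4g and Fcgr2b overlap genes on the opposite strand in GENCODE M21, for Stab1 the gene Nt5dc2, and it is not stated whether counting used strand.

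Of the 5 other genes typical of sinusoidal cells 4 were called higher, beside 19.1% of all tested genes. Dnase1l3, a secreted DNase, was at 13.08, 14.29 and 13.87 FPKM in the sedentary and 16.58, 16.57 and 17.26 FPKM in the exercise libraries. Ehd3, which acts in endosome recycling, was at 14.96, 15.68 and 16.27 against 19.21, 18.82 and 18.40 FPKM. Aqp1, a water channel that bile duct cells and red cells also make, was at 33.49, 32.34 and 31.89 against 38.82, 38.58 and 37.51 FPKM. All exercise values of these genes exceeded all sedentary ones, and the genes rose 1.16-fold, 1.14-fold and 1.12-fold (edgeR adjusted p = 4.14e-05, 0.000147 and 0.000209). Gpr182, an atypical chemokine receptor, was at 7.97, 8.46 and 7.94 against 10.40, 9.43 and 10.38 FPKM. It rose 1.18-fold (adjusted p = 0.0165 by edgeR), and the call ended without sedentary replicate 1 or 3 or exercise replicate 1 or 3 (adjusted p = 0.0514 to 0.0631). The log2 fold change of Oit3 was 0.14 and did not pass (adjusted p = 0.0716), but passed without exercise replicate 1 (edgeR adjusted p = 0.0168).

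The ligands that endothelial cells send to hepatocytes were scarce. Of the 3 that could be tested 2 were called higher, beside 19.1% of all tested genes. Which liver cells made their RNA was not tested. Rspo3 (chr10:29453106-29535867, minus strand), which strengthens Wnt signals, was at 1.41, 1.63 and 1.92 FPKM in the sedentary and 2.20, 2.62 and 2.09 FPKM in the exercise libraries, on 54 to 98 reads per library. It had the largest rise of the called markers, 1.32-fold (log2 fold change 0.40, SE 0.14, edgeR adjusted p = 0.0221). Bmp2 was at 2.59, 2.81 and 2.46 against 3.20, 3.00 and 3.69 FPKM and rose 1.19-fold (adjusted p = 0.0296 by edgeR). The groups did not overlap for either gene, yet each call ended when certain single libraries were left out. For Rspo3 it ended without sedentary replicate 1 or 2 or exercise replicate 2 (adjusted p = 0.0562 to 0.146), for Bmp2 without sedentary replicate 1 or 3 or exercise replicate 3 (0.0677 to 0.224), and by DESeq2 for both (0.127 and 0.145). Wnt2 was at 1.91, 1.41 and 1.08 against 1.23, 2.13 and 1.71 FPKM, with overlapping groups and an estimate of 0.24 (SE 0.17, adjusted p = 0.272). With 1 library left out the log2 fold change of Wnt2 ran from 0.07 without sedentary replicate 3 to 0.48 without sedentary replicate 1, where it was called (edgeR adjusted p = 0.0351). Wnt9b was under the minimum of 1 FPKM, at 0.23, 0.33 and 0.27 against 0.39, 0.49 and 0.41 FPKM, or 18, 25 and 21 against 30, 37 and 31 reads. Its exercise values were all above the sedentary ones, and in a fit without the minimum its estimate was 0.56 on the log2 scale (SE 0.22, edgeR adjusted p = 0.0653).

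Receptors for vascular growth factors and their regulators had 5 of 8 members higher, beside 19.1% of all tested genes, and held the firmest calls. Ptprb (chr10:116275502-116389538, plus strand), a phosphatase that restrains the angiopoietin receptor Tek, was at 3.68, 3.76 and 3.95 FPKM in the sedentary and 4.80, 5.06 and 5.14 FPKM in the exercise libraries. Kdr (chr5:75932827-75979072, minus strand), the main receptor for vascular endothelial growth factor (VEGF) A, was at 6.33, 6.12 and 6.44 against 8.14, 8.32 and 8.05 FPKM. The groups were well apart, and the genes rose 1.24-fold and 1.23-fold (log2 fold changes 0.32 and 0.30, SE 0.04 and 0.05, edgeR adjusted p = 3.97e-08 and 5.47e-07). Flt4, the receptor for VEGF-C, was at 3.22, 4.08 and 3.46 against 4.15, 4.63 and 4.61 FPKM. Tie1, a co-receptor of Tek, was at 3.66, 3.24 and 3.36 against 4.30, 4.47 and 3.69 FPKM. For Flt4 and Tie1 the lowest exercise library was close to the highest sedentary one, and in TMM-scaled counts the groups overlapped. Flt4 rose 1.18-fold (adjusted p = 0.00344), or 0.0545 without sedentary replicate 1. Tie1 rose 1.15-fold (adjusted p = 0.0435), and the call ended without sedentary replicate 2 or 3 or exercise replicate 1 or 2 (0.103 to 0.215). Eng, the co-receptor endoglin for BMP9, was at 15.81, 15.92 and 15.78 against 17.83, 18.22 and 18.07 FPKM. It showed the smallest called rise, 1.08-fold (adjusted p = 0.0246 by edgeR), and passed in 1 of the 6 fits with a library left out, that without exercise replicate 1 (0.0517 to 0.072 in the others). Eng exons overlap those of Fpgs on the opposite strand, and 9 of the 34 markers had such an overlap, 5 of them called.

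Tek itself was closest to no change among the 32 tested markers, with an estimate of 0.04 on the log2 scale (SE 0.09, adjusted p = 0.773). Its levels were 2.16, 2.21 and 2.69 FPKM in the sedentary and 2.50, 2.72 and 2.44 FPKM in the exercise libraries. Flt1, a receptor that binds VEGF-A and limits its action, had an estimate of 0.19 (SE 0.09, adjusted p = 0.108), and Ramp2, a partner of the adrenomedullin receptor, one of 0.18 on 75 to 94 reads (adjusted p = 0.291).

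Junction and surface proteins had 2 of 8 members higher, a share near the 19.1% of all tested genes, and none lower. Their median log2 fold change was 0.17. Cldn5, a tight junction protein, was at 4.74, 4.18 and 4.82 FPKM in the sedentary and 5.26, 5.60 and 7.23 FPKM in the exercise libraries. It rose by 25.3% (edgeR adjusted p = 0.0339), with the third exercise library well above the others. Without that library the log2 fold change was 0.17 in place of 0.33 (adjusted p = 0.336), and without sedentary replicate 2 the adjusted p was 0.14. Plvap, a component of the diaphragms of vessel pores, was at 15.49, 17.25 and 16.42 against 18.14, 20.17 and 20.00 FPKM. Its groups were apart in FPKM but overlapped in TMM-scaled counts. It rose 1.13-fold (edgeR adjusted p = 0.0101), and the call ended without sedentary replicate 1 or exercise replicate 2 or 3 (0.0561 to 0.0765). Beside Pecam1 and Cdh5, the adhesion proteins Esam and Icam2, the sialomucin Emcn and the guidance receptor Robo4 did not pass, with log2 fold changes of 0.10 for Robo4 to 0.37 for Icam2. Icam2 and Emcn were read 24 to 50 times per library, and their standard errors were 0.21 and 0.19.

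The secreted protein Egfl7, the transcription factor Sox18 and the nitric oxide synthase Nos3 gave no call. Egfl7 had an estimate of 0.18 on the log2 scale (adjusted p = 0.0763). The log2 fold change of Sox18 was 0.34 (adjusted p = 0.068). For Sox18 the third sedentary library was well below the others, and the estimate was 0.16 without it (adjusted p = 0.467). Sox18 was called without sedentary replicate 1 or 2 (edgeR adjusted p = 0.0286 and 0.0474). Nos3 was at 1.04, 0.79 and 0.76 FPKM against 1.21, 0.91 and 0.94 FPKM, under the minimum on average, and in the fit without the minimum its estimate was 0.17 (SE 0.16, adjusted p = 0.486).

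**Figure D2:**
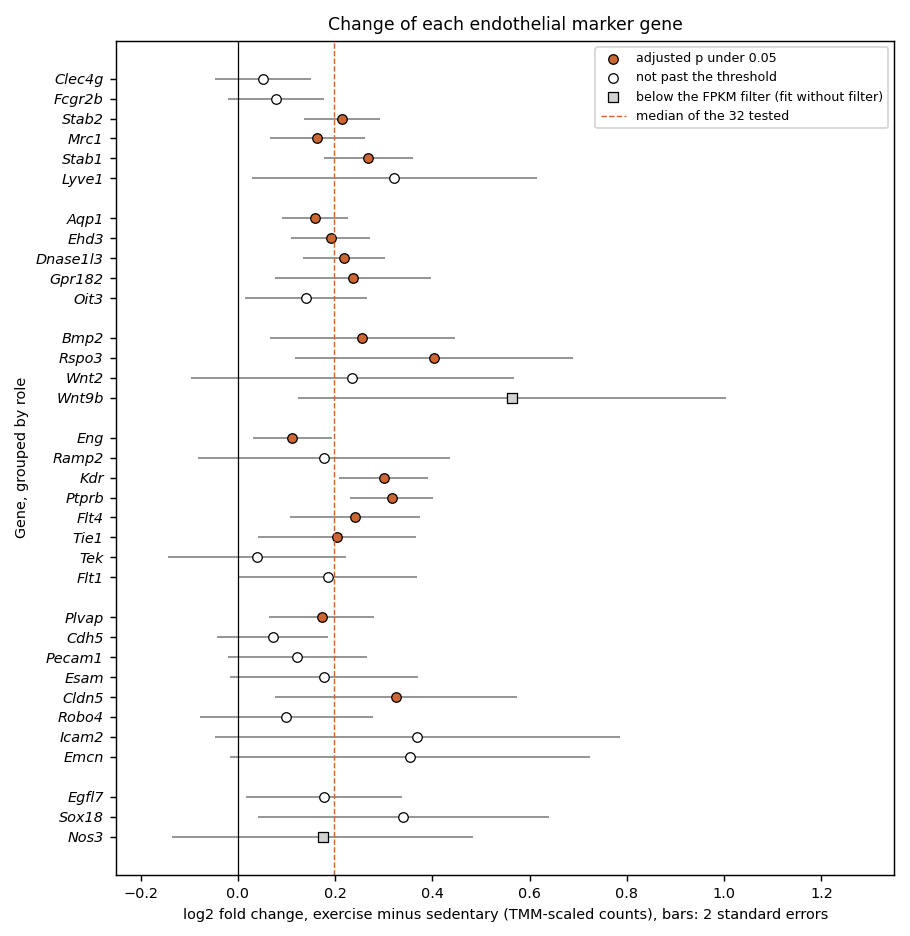
Log2 fold change (exercise minus sedentary, TMM-scaled counts) of each marker with bars of 2 standard errors, filled circles past the threshold, open circles not past it and squares for the 2 genes below the FPKM minimum. All 32 tested estimates lie right of 0, and the dashed line is their median of 0.20.

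For 26 of the 32 tested markers the median of 0.20 lay within 2 standard errors of the estimate. Clec4g, Fcgr2b, Cdh5 and Eng were further below it, and Kdr and Ptprb were further above it. The 16 called markers had a median mean count of 729 per library and the 16 others one of 185, while their median log2 fold changes were 0.23 and 0.18. Standard errors were 0.03 to 0.14 among the called and 0.05 to 0.21 among the other markers. By deposited FPKM the groups did not overlap, with exercise higher, in 28 of the 32 tested markers (36.6% of all tested genes), and by TMM-scaled counts in 21 (23.3% of all tested genes). In no tested marker were all exercise values lower. The median ratio of the 32 markers to the sedentary mean was 0.18, 0.21 and 0.21 on the log2 scale in exercise libraries 1 to 3, a like shift in each of the 3.

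Genes of related function outside the 34 were read from lists, beside the 19.1% of all tested genes called higher and the 19% called lower. Which cells of the liver made their RNA was not tested. Of 18 tested genes of vascular endothelium in general 5 were higher and none lower (median log2 fold change 0.13), among them Ltbp4 (0.20), Adgrf5 (0.20) and S1pr1 (0.28), a sphingosine phosphate receptor, at 17.2 ± 0.149 and 21.9 ± 0.682 FPKM (SD, n = 3). Of 9 tested endothelial transcription factors 5 were higher and none lower (median 0.23), among them Ets2 (0.43), the flow-responsive factor Klf2 (0.43) and Ets1 (0.23), and the count was 3 without sedentary replicate 2 or 3 or exercise replicate 2. Of 7 tested Notch genes 4 were higher and none lower (median 0.30), among them the ligand Jag1 (0.50) and the target Hes1 (0.43), and the count was 2 without sedentary replicate 1 or exercise replicate 2. Ligands and co-receptors of the VEGF and angiopoietin receptors had 3 of 7 tested genes higher and 1 lower (median 0.16). Vegfa went from 48.0 ± 0.925 to 56.6 ± 0.683 FPKM (SD, n = 3), Vegfb had a log2 fold change of 0.56, and the co-receptor gene Nrp1 fell by 0.24 on the log2 scale. DESeq2, which called 12.4% of all genes higher, called 3 of the 18 general vascular genes, 3 of the 9 transcription factors and 2 of the 7 Notch genes. The share of the vascular genes was thus near that of all genes. With library totals alone, where 34.5% of all genes were called higher, 9 vascular genes and 8 transcription factors were. Without exercise replicate 1 a Notch gene was called lower.

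The pathways that the ligands act on were read beside the 19.1% of all tested genes called higher and the 19% called lower. Of 18 genes of Wnt reception and pericentral targets 6 were higher and 3 lower (median 0.07). Tbx3 rose from 7.09 ± 0.295 to 11.8 ± 0.0819 FPKM (SD, n = 3), Glul, the glutamine synthetase of pericentral hepatocytes, from 428 ± 17.3 to 520 ± 10.7 FPKM, and Oat fell by 0.22 on the log2 scale. Of 14 tested genes of BMP signalling and hepcidin 5 were higher and 3 lower (median 0.11), and the count higher was 3 without exercise replicate 1 and 2 by DESeq2. Hamp, which encodes hepcidin, fell from 3383 ± 87.0 to 2077 ± 53.6 FPKM (SD, n = 3), and Hjv, the BMP co-receptor gene hemojuvelin, fell by 0.33. Hamp2 had a log2 fold change of 0.80, and the division of reads between Hamp and its near copy Hamp2 is uncertain.

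Markers of other liver cells were counted the same way, beside the 19.1% of all tested genes called higher and the 19% called lower. Of 14 Kupffer cell genes 11 were lower, such as Mpeg1 (−0.67), Cd5l (−0.40) and Marco (−0.92), and 0 higher (median −0.27, with a summed level of 420 to 432 FPKM in sedentary and 357 to 364 FPKM in exercise libraries), although Stab1 and Mrc1, which macrophages share, rose. Of 12 tested stellate cell genes 5 were higher, among them Ecm1 (0.47), Dcn (0.28) and Lrat (0.66). Of the others 1 was lower, Col3a1 (−0.36), with 2 lower without exercise replicate 1 or 3. Of the 12 estimates 8 lay above 0, with a median of 0.11. The summed level was 158 to 161 against 202 to 206 FPKM. It includes Ecm1, with means of 43.6 and 63.4 FPKM, and Dcn, with means of 62.6 and 79.9 FPKM. Lymphatic genes had 2 of 3 higher, Prox1 and Reln, which hepatocytes and stellate cells also make, and none lower (median 0.22, 17.8 to 18.9 against 22.1 to 22.9 FPKM). Smooth muscle genes had 1 of 2 higher, Acta2, and none lower (3.53 to 4.32 against 5.81 to 6.46 FPKM). Their median of 0.71 lay between Acta2 at 1.32, with means of 0.64 and 2.14 FPKM, and Tagln at 0.11. Bile duct genes had 1 of 3 lower, Spp1, and none higher (median −0.31, 71.9 to 73.7 against 42.4 to 43.5 FPKM), with 2 lower without exercise replicate 3. Red cell and platelet genes had 4 of 5 lower, with Hbb-bs at −0.36, and none higher (median −0.19, 382 to 395 against 337 to 354 FPKM), with 2 lower without sedentary replicate 2 or exercise replicate 2 or 3 and 1 lower by DESeq2 or with library totals alone. Neither of 2 tested lymphocyte genes was called by edgeR, while limma called 1 lower (median −0.39, 5.47 to 6.58 against 5.82 to 6.59 FPKM). Of 12 hepatocyte genes 8 were higher, among them Hnf4a (0.27), Cyp3a11 (0.21) and Apoa2 (0.20), and 3 lower, or 0 lower with library totals alone. Their median was 0.06, at a summed level of 95659 to 96778 against 100110 to 100820 FPKM. Hepatocyte genes were read at 2186700 to 2245800 summed counts per library and the 34 markers at 13205 to 15767. The part of depth in these calls was not tested. The deposited table held 9 of 10 listed lymphocyte genes, 8 of 9 red cell and platelet genes and 12 of 13 hepatocyte genes. No listed gene that it held was at 0 in all libraries. The part of these cells in the endothelial values was not tested.

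**Figure D3:**
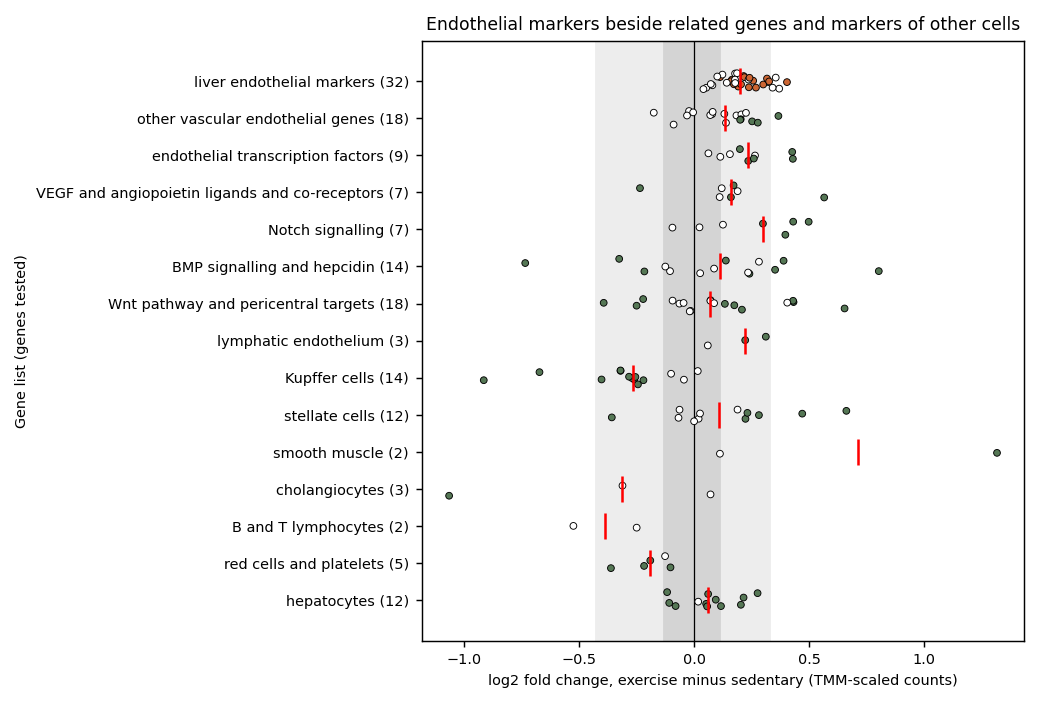
Log2 fold change (exercise minus sedentary) of every tested gene of each list, filled where past the threshold, with a red bar at the list's median. The dark band holds the middle of all 10266 tested genes (25th to 75th percentile, −0.13 to 0.11) and the light band the 5th to 95th percentile (−0.43 to 0.33), and the liver endothelial markers lie right of 0 while Kupffer cell genes lie mostly left of it.

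Across the other settings the share of markers called higher was above the share of all genes in each setting that called any marker. The share was lowest with DESeq2, where 8 of 32 markers passed beside 12.4% of all genes, and all 8 were among the 16. They were Stab1, Stab2, Dnase1l3, Ehd3, Aqp1, Kdr, Flt4 and Ptprb. It was highest with library totals alone, where 26 of 32 passed beside 34.5% of all genes. On log2(FPKM + 1) limma called 23 (27.9% of all genes), or 15 after quantile normalization (16.8%). With 1 library left out the markers called were 12, 13 and 11 without sedentary replicates 1, 2 and 3, beside 17.1%, 16.6% and 16.6% of all genes. They were 15, 11 and 11 without exercise replicates 1, 2 and 3, beside 16.7%, 16.8% and 17.2%. The other settings called 16 with median-of-ratios scaling (19.2% of all genes), 20 without the 20 most abundant genes in the totals (25.2%) and 23 by limma with a pseudocount of 0.1 (27.8%). Without a minimum level 14 of 34 passed (12.3%), at a minimum of 5 FPKM 11 of 19 (22.2%), and with a replicate block 16 (18.8%).

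**Figure D4:**
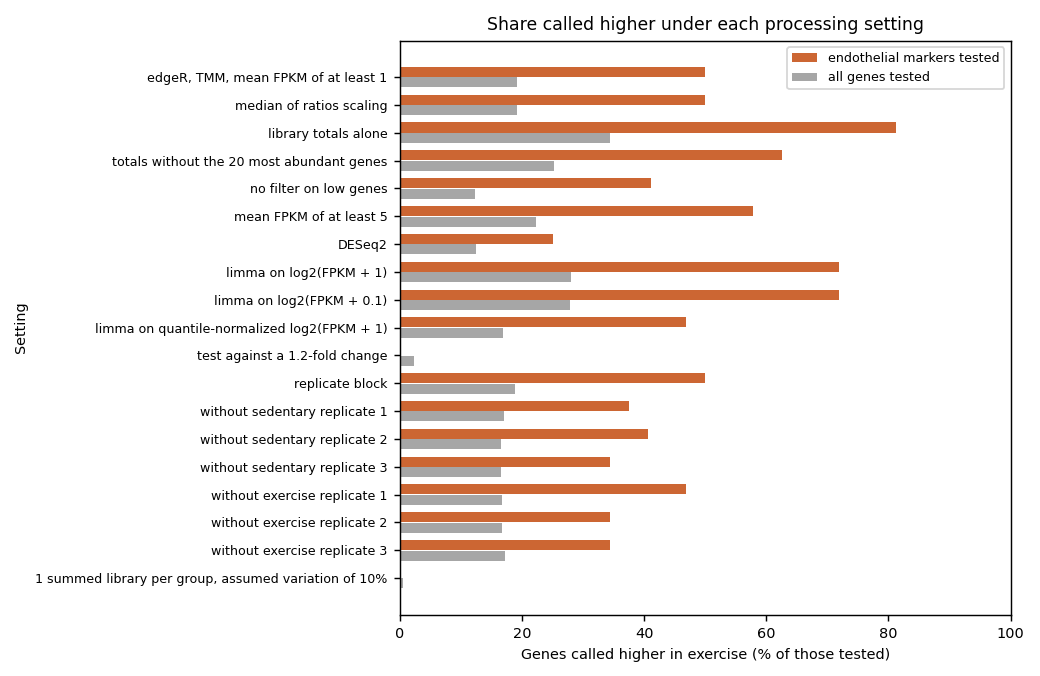
Percentage of tested endothelial markers (orange) and of all tested genes (grey) called higher in exercise at an adjusted p under 0.05, for the fit of the text and each of 18 alternatives. The orange bar is the longer one except in the test against a 1.2-fold change and with 1 summed library per group, where no marker was called.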

How the data were processed

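RNA of 6 livers was extracted with TRIzol and, per the labels' protocols, sequenced from both ends by DNBseq, and low-quality, N-rich and short reads were removed. Per the submitters' processing notes, cutadapt, featureCounts and MultiQC were used with GRCm38.p6. The aligner, annotation and strand setting of the authors were not given in the sources used here. The deposited table holds estimated counts, FPKM and other values, of which 12 columns were not used here. The FPKM values were taken as the authors deposited them, and the authors' estimated counts were rounded to whole numbers (those of all 34 markers were whole as deposited).

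Counts of the 10266 genes averaging 1 FPKM or more were fitted with edgeR 4.0.16 in R 4.3.3, with TMM scaling, estimated dispersions, no covariates, a two-sided quasi-likelihood F test and Benjamini-Hochberg adjustment at 0.05. A standard error is the log2 fold change over the square root of F. The fit was also run on data simulated for exercise against sedentary with 10266 genes, 50 of them changed at each simulated fold. It recovered 70% of genes changed 1.25-fold and 88% of those changed 1.5-fold, and 3.26% of its calls were unchanged genes. The simulated spread was that estimated from these libraries. The real data gave 3913 called genes, a far larger share, so these rates need not hold there. The columns were matched to samples by the labels' descriptions and grouped by treatment. Alternatives used DESeq2 1.42.0, limma 3.58.1 with pseudocounts of 1 and 0.1, other scalings, filters and a replicate block. Exon overlaps come from GENCODE M21, promoter windows from RefSeq.

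The markers, their roles and the 14 other gene lists were chosen with earlier results of these data known. Library values are given for markers past the threshold, the 4 defining markers and the ligands. Up to 3 genes of each other list were named by smallest p, with Col3a1 added as the stellate cell gene called lower.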

Additional observations from a re-analysis of the deposited data

How the results depend on the processing

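Of 18 alternatives, 12 were changes of scaling, filter, test or block and 6 left out 1 library each. No marker was called lower in any of them. The number called higher was 26 with library totals alone and 8 with DESeq2, which called 2512 genes in all. Markers called numbered 0 against a 1.2-fold change (653 genes in all) and 0 with 1 summed library per group at an assumed variation of 10% (176 genes in all), an alternative chosen after seeing the data that had no room to call changes of this size. With 1 library left out it was 11 to 15, and all genes called were 3419 to 3507. The median of the markers lay 0.156 to 0.22 above that of all tested genes on the log2 scale in every setting. The log2 fold change of Tek, with 1 library left out, ran from −0.0187 to 0.148, and was −0.00677 without sedentary replicate 2 and −0.00872 without exercise replicate 2. The cause of these differences was not tested.

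The replicate numbers of the labels gave no sign of a pairing, as deviations of same-numbered libraries correlated at −0.0306, −0.0159 and −0.025. In libraries this close to each other such values cannot show that there was none. With a replicate block 16 markers were called, the genes called numbered 3846, and 2 of 7 Notch genes were called higher. The standard errors of the 6 tested markers with the fewest reads, Rspo3, Lyve1, Sox18, Wnt2, Emcn and Icam2, were 0.14 to 0.21. The part of depth in their calls was not tested.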
